A study of Mus musculus with 62 samples.

Results

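The soleus of mice that carried non-cachectic melanoma cells (group NCAC) was compared between 8 and 6 weeks after the cells were injected. The members are the 5 libraries of NCAC at 8 weeks and the 5 libraries of NCAC at 6 weeks, 10 of the 62 libraries in the series, and they were chosen by treatment and week alone. The study followed the soleus, a hindlimb muscle, in female mice aged 2 months, by RNA sequencing at 2, 4, 6 and 8 weeks after the injection of cachectic melanoma cells (CAC), of non-cachectic melanoma cells (NCAC), or of a mock (Con). The labels do not name the melanoma lines. They disagree on the strain, since the sample entries give C57BL6/J and the design text gives NCI Ath/nude, and the protocol text mentions LLC cells. All groups share sex, age and tissue as labelled, and Con received no tumour cells. The libraries of a group are called biological replicates in the labels, so the p-values measure the spread between these samples. No processing date or batch is given, and week and processing batch cannot be told apart.

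The soleus is an antigravity muscle rich in slow oxidative fibres, which depend on mitochondria, a slow form of myosin and a slow calcium pump. Between the fibres lie capillaries, nerve endings, macrophages, mast cells and fibro-adipogenic progenitors, the connective tissue cells of muscle that make matrix and can become fat cells. Cachexia is the wasting of muscle and fat that accompanies some tumours, and the cells of this group are labelled as not bringing it on. A bulk library mixes the RNA of all these cells, so fewer cells of a type and less RNA per cell cannot be told apart.

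The tissue label was checked against fibre genes. Myh7, the slow myosin heavy chain, was at 3723 to 6023 TPM in the 5 libraries of week 6 and at 985 to 2891 TPM in the 5 of week 8, and Tnnt1, slow troponin T, lay at 2448 to 7260 TPM over all 10. Myh4, the fastest myosin, was at 26.1 TPM or less in 9 libraries and at 687 TPM in NCAC 6-week replicate 3. Values are in TPM, the share of each library's transcripts that a gene takes, corrected for transcript length. They carry no count of reads, and the number of reads behind a value is unknown.

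The 8-week libraries were less alike than the 6-week ones, and 1 of them stood near the 6-week group. On the first principal component, which held 75.7% of the variance, the 6-week libraries scored between -51.1 and -33.6, and 8-week replicates 1, 4 and 5 scored 76.2, 68.9 and 58.0. Replicate 3 of week 8 scored 20.2 and replicate 2 scored -8.47. Across genes, replicate 2 correlated with the 6-week libraries at 0.966 to 0.978, and replicate 1 at 0.841 to 0.867. List counts are therefore given also without 8-week replicate 2 where leaving it out moved them by over 1.5 times, and for several other lists. The summed share of mitochondrially encoded RNA was 31.4 ± 5.33% at 8 weeks and 39.1 ± 2.68% at 6 weeks (SD, n = 5 each, exact two-sided permutation test, p = 0.0317, adjusted p = 0.0317). Genes at 1 TPM or more numbered 12631 ± 403 at 8 weeks and 11800 ± 172 at 6 weeks (SD, n = 5 each, exact two-sided permutation test, p = 0.00794, the smallest the design allows, adjusted p = 0.0159). For the mitochondrial share the p rose to 0.0556 when any 1 of 6 libraries was left out.

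Of 12183 genes tested with limma on log2(TPM + 1), 5413 changed at an adjusted p under 0.05, which is 44.4%. The change was mostly upward on the TPM scale: 3743 genes were higher at 8 weeks (30.7%) and 1670 were lower (13.7%), and the median log2 change of all genes was 0.13. This split depended on the scale. After median-of-ratios rescaling the median was -0.06, a shift of about 0.19, and 3137 genes were higher (25.7%) and 3557 lower (29.2%), so that the share of calls that were higher went from 69.1% to 46.9%. Without 8-week replicate 2, 4391 genes were higher (36.6%) and 1997 lower (16.6%) of 12003 tested. The values of the 5 libraries of week 8 all lay above, or all lay below, those of week 6 in 3132 genes (25.7%), 2306 above (18.9%) and 826 below (6.78%). Longer transcripts moved less upward than short ones: among 5 equal bins of genes by transcript length, the median log2 change was 0.22 in the shortest and 0.05 in the longest. With that trend removed 3195 of 11798 genes were higher (27.1%) and 3148 lower (26.7%).

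**Figure D1:**
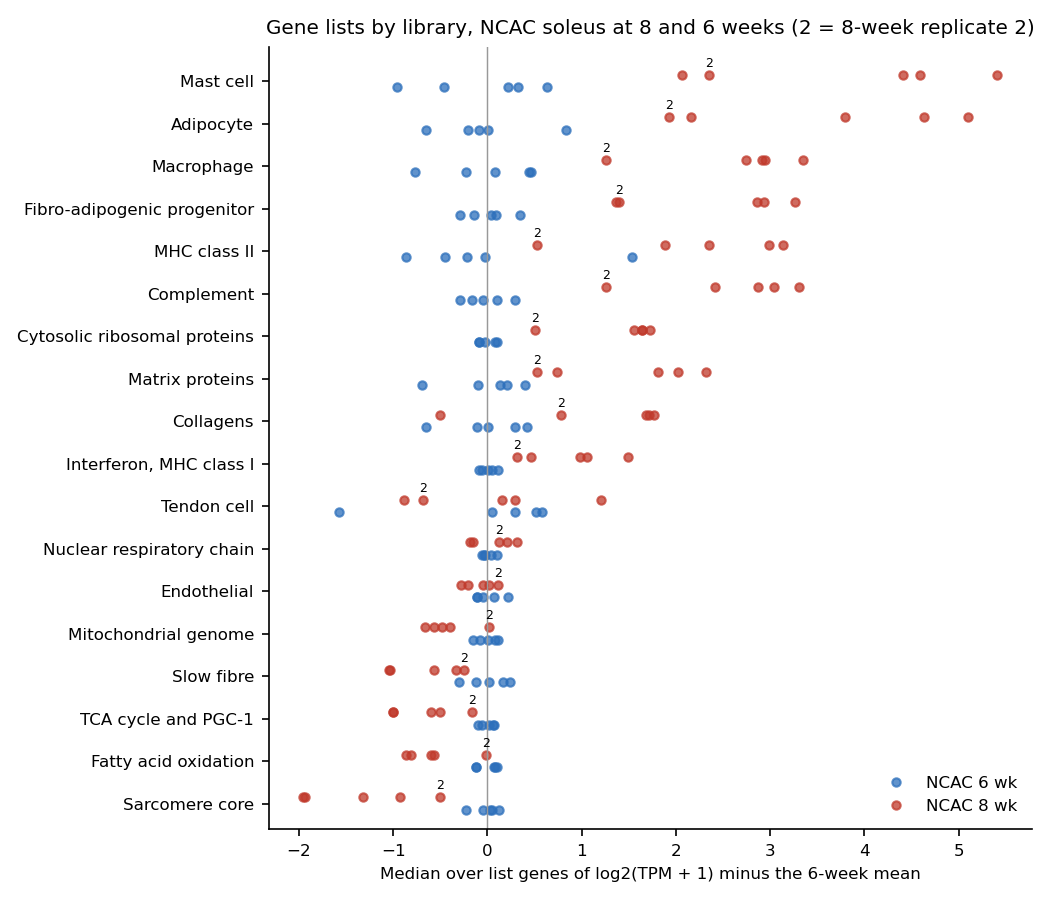
Median over the genes of each list of log2(TPM + 1) minus the mean of week 6, by library; each point is 1 NCAC library, blue at 6 weeks and red at 8 weeks, and the digit 2 marks 8-week replicate 2. The red points lie apart from the blue in the mast cell, adipocyte, macrophage and ribosomal protein lists and mix with them in the tendon and endothelial lists, and in the macrophage, complement and ribosomal lists replicate 2 is the 8-week point nearest to 6 weeks, at 1.26, 1.26 and 0.51.

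Fat cell genes were among the largest rises. Of 13 adipocyte markers tested, 11 were higher at 8 weeks (84.6%, against 30.7% of all genes) and 0 were lower (against 13.7%). Their median log2 change was 3.64, against 0.13 for all genes. The counts were 11 and 0 also after rescaling and without 8-week replicate 2. Of the 10 genes with the largest rises, 5 were markers on this list (Retn, Adipoq, Cfd, Scd1 and Cidec).

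Adipoq (chr16:23146536-23158028, mm10) encodes adiponectin, a hormone made by fat cells. It was at 1420, 182, 365, 1112 and 694 TPM in 8-week replicates 1 to 5, and at 16.3, 72.0, 29.4, 26.7 and 25.3 TPM in 6-week replicates 1 to 5. Every 8-week library was above every 6-week one, and the closest pair were replicate 2 of week 8 and replicate 2 of week 6. The log2 change was 4.27 ± 0.54 (SE, limma, adjusted p = 9.35e-04), and 4.69 without 8-week replicate 2. Cfd, the adipsin or complement factor D that fat cells secrete, was at 7372, 1253, 3367, 8458 and 4833 TPM at 8 weeks and at 131 to 423 TPM at 6 weeks, a log2 change of 4.24 ± 0.50 (SE, limma, adjusted p = 8.79e-04). Retn, the adipocyte hormone resistin, had the largest log2 change of the named genes, at 4.45 ± 0.56, with 57.4 to 533 TPM at 8 weeks and 4.29 to 20.03 TPM at 6 weeks.

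The 10 largest rises also held 4 genes of enzymes and lipid droplets, of which Scd1 and Cidec are on the adipocyte list. Scd1, a desaturase that makes monounsaturated fatty acids, was at 372 to 3920 TPM at 8 weeks and 38.2 to 187 TPM at 6 weeks, a log2 change of 4.15. Cidec, a protein of the lipid droplet surface, was at 82.0 to 657 against 10.3 to 30.6 TPM, a log2 change of 4.07. Cdo1, which oxidises cysteine, and Cyp2e1, a cytochrome P450, had log2 changes of 4.04 and 4.09. In all 4 genes the 2 groups of libraries were separate, and 8-week replicate 2 was the lowest of its group.

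The markers that did not pass were Plin4 and Car3. Plin4, a lipid droplet protein, averaged 289 TPM at 8 weeks and 258 at 6 weeks, and Car3, a carbonic anhydrase, averaged 5678 and 5098 TPM. Both were already abundant at 6 weeks, and why they did not pass was not tested. Ucp1, the uncoupling protein of brown fat, averaged 0.0829 TPM at 8 weeks and 0.0434 TPM at 6 weeks, below the level needed for testing.

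Markers of macrophages were higher as a block. All 13 macrophage markers tested rose, against 30.7% of all genes, with a median log2 change of 2.84. After rescaling 13 of 13 rose, against 25.7% of all genes. Without 8-week replicate 2, 12 were tested and 12 rose. C1qa (chr4:136895917-136898803), a chain of complement C1q that tissue macrophages make, was at 294, 67.2, 229, 221 and 272 TPM at 8 weeks and at 24.7, 34.9, 18.5, 31.4 and 9.56 TPM at 6 weeks. The groups did not overlap, and 4 of the 8-week libraries lay within 221 to 294 TPM. Its log2 change was 3.10 ± 0.43 (SE, limma, adjusted p = 9.99e-04). Tyrobp, a signalling adaptor of myeloid cells, was at 25.5 to 152 TPM against 4.90 to 11.6 TPM, and Fcer1g, the common chain of Fc receptors, at 13.1 to 51.2 against 2.09 to 6.46 TPM. Wfdc17, among the 10 largest rises, was at 262 TPM in 8-week replicate 3, 19.99 TPM in replicate 2 and 78.4 to 110 TPM in the other 3, against 1.53 to 7.04 TPM at 6 weeks.

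Mast cell genes rose in a library-dependent way. All 5 mast cell markers tested, of 8 on the list, were higher, against 30.7% of all genes, with a median log2 change of 3.82. Mcpt4, a mast cell chymase, was at 186, 40.3, 31.6, 158 and 405 TPM at 8 weeks and at 8.08, 11.8, 5.98, 8.58 and 2.72 TPM at 6 weeks. Replicates 2 and 3 of week 8 were the lowest and replicate 5 the highest, with no overlap with 6 weeks. Its log2 change was 3.82 ± 0.64 (SE, limma, adjusted p = 0.00164). Cma1, another chymase, Tpsb2, a tryptase, and Cpa3, a carboxypeptidase of the same granules, had log2 changes of 3.96, 3.89 and 3.67.

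Other blood cell markers were mostly too low to test. Of 12 neutrophil markers 2 were tested, S100a8 and S100a9, the calprotectin subunits, and both rose, with log2 changes of 2.51 and 2.14. Their highest value was in 8-week replicate 1 (38.8 TPM for S100a8, 10.9 to 13.4 TPM in the other 4). Of 12 T and NK cell markers 1 was tested, the granzyme Gzma, which was at 0.243 to 0.930 TPM at 6 weeks and rose to 1.26 to 3.15 TPM at 8 weeks; without 8-week replicate 2 it was too low to test. Ighm, the IgM heavy chain, rose with a log2 change of 2.79. Igkc, the kappa light chain, was at 92.4 TPM in 8-week replicate 3 and at 1.74 to 3.38 TPM in the other 4, and it did not pass (limma, adjusted p = 0.291). Pf4, the single platelet marker tested of 8, rose with a log2 change of 3.19. Of 6 erythroid markers tested 3 rose (50%, against 30.7% of all genes), among them Hbb-bs and Hbb-bt, the beta globins, and Bpgm fell. Globin copies are near-identical, and how reads were shared among them is not given in the sources used here.

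Connective tissue markers rose alongside. All 12 markers of fibro-adipogenic progenitors were higher, against 30.7% of all genes, with a median log2 change of 2.49. The count was 12 of 12 also after rescaling and without 8-week replicate 2, against 25.7% and 36.6% of all genes. Dpt, dermatopontin, a small matrix protein, was at 1138, 273, 176, 1005 and 959 TPM at 8 weeks and at 57.2, 74.4, 52.3, 59.1 and 37.0 TPM at 6 weeks. The 8-week libraries fell into a high set of 3 and a low set of 2, replicates 2 and 3, and both were above 6 weeks. The log2 change was 3.32 ± 0.49 (SE, limma, adjusted p = 0.00112). Pdgfra, the receptor that defines these cells, was at 12.2 to 42.6 TPM against 4.08 to 6.69 TPM, and Dcn, the proteoglycan decorin, at 894 to 3355 against 270 to 462 TPM.

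**Figure D2:**
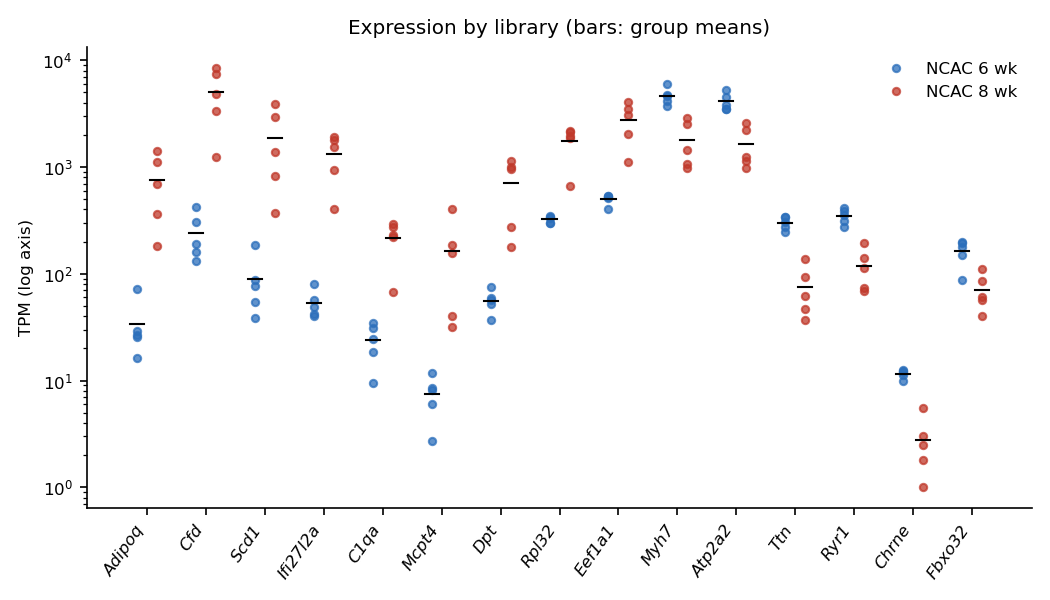
TPM of 15 genes in each NCAC library at 6 weeks (blue) and 8 weeks (red) on a log axis, with a bar at each group mean. The 8-week points lie above the 6-week points from Adipoq to Eef1a1 and below them from Myh7 to Chrne, and in Fbxo32 the groups overlap (40.3 to 110 TPM at 8 weeks, 87.8 to 199 TPM at 6 weeks).

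The matrix genes followed with 1 exception among the libraries. Of 23 matrix proteins, proteases and inhibitors 14 were higher (60.9%, against 30.7% of all genes) and 0 lower (against 13.7%), with a median log2 change of 1.37. Of 18 collagens 11 were higher (61.1%) and 0 lower, with a median of 1.10. With mitochondrially encoded genes left out 7 collagens were higher, and with the replicate number as a block 6 were. Across the collagens, the median against 6 weeks was 1.71, 0.78, 1.69 and 1.77 in 8-week replicates 1, 2, 4 and 5 and -0.50 in replicate 3, inside the range of week 6 (-0.65 to 0.42). After rescaling 9 collagens were higher and 1 lower, where 25.7% of all genes were higher and 29.2% lower. Col14a1, a collagen that decorates fibrils, was at 74.8, 15.2, 10.3, 40.7 and 73.6 TPM against 3.46 to 5.80 TPM. Col1a1, the main fibrillar collagen, was at 146, 57.4, 10.1, 97.8 and 158 TPM at 8 weeks and at 91.6, 86.6, 53.2, 48.0 and 19.8 TPM at 6 weeks, and it did not pass, with a log2 change of 0.35 ± 0.68 (SE, limma, adjusted p = 0.697). That value was -0.12 once the trend with transcript length was removed. Adamts5, an aggrecanase, and Mmp14, a membrane metalloproteinase, were higher in 5 of 5 libraries, with log2 changes of 2.35 and 1.84.

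Tendon, vessel and nerve markers did not share this rise. Over all genes tested, 30.7% rose and 13.7% fell on the TPM scale. After rescaling these shares were 25.7% and 29.2%, and without 8-week replicate 2 they were 36.6% and 16.6%. Of 12 tendon cell markers 0 passed in either direction by limma, and their median was 0.15 on the TPM scale and -0.03 after rescaling; 1 was lower after rescaling and 1 higher without 8-week replicate 2. Of 12 endothelial markers 2 were higher, Tek, an angiopoietin receptor, and Cldn5, a tight junction protein, and 2 were lower, Esam and Flt1; 4 were lower after rescaling and 5 without 8-week replicate 2. Among 12 smooth muscle and pericyte markers 2 were higher, Higd1b and Mcam, and 4 lower, among them Myh11, the smooth muscle myosin, and Notch3; after rescaling 8 were lower. Among 9 Schwann cell markers tested 2 rose and 2 fell, and 1 fell without 8-week replicate 2. Of 8 keratinocyte markers 2 were tested, and Krt10, a keratin, rose with a log2 change of 0.59 on the TPM scale and did not pass after rescaling (limma, adjusted p = 0.0561). Of 8 melanocyte markers 1 was tested, Mitf, and it did not pass (limma, adjusted p = 0.121); the pigment genes Tyr, Pmel and Mlana averaged 0.00129, 0.181 and 0.359 TPM at 8 weeks.

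Complement genes rose as a group. Of 17 tested, 15 were higher (88.2%, against 30.7% of all genes) and 0 lower, with a median log2 change of 2.23. In 15 the 8-week libraries all lay above the 6-week ones, against 18.9% of all genes. Cfb, factor B of the alternative pathway, was at 59.96, 12.9, 35.9, 65.8 and 50.3 TPM at 8 weeks and at 3.21 to 6.66 TPM at 6 weeks, a log2 change of 2.91 ± 0.38 (SE, limma, adjusted p = 9.65e-04). Cfd, C1qa, C1qb and C1qc belong to complement and also to the adipocyte or macrophage lists. Of 13 chemokines tested 10 were higher (76.9%, against 30.7% of all genes). Ccl11, or eotaxin, was at 118 to 378 TPM against 28.7 to 43.1 TPM, and Ccl9, made by macrophages, at 12.3 to 56.9 against 1.18 to 6.56 TPM.

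Interferon-responsive and antigen presentation genes were higher too. Of 30 interferon-response and MHC class I genes tested 22 rose (73.3%, against 30.7% of all genes) and 0 fell (against 13.7%), with a median log2 change of 0.90. After rescaling 19 rose, where 25.7% of all genes did. Ifi27l2a (chr12:103442167-103443680), an interferon-inducible protein, was at 1895, 407, 939, 1778 and 1534 TPM at 8 weeks and at 48.5, 79.8, 40.1, 41.6 and 56.8 TPM at 6 weeks, a log2 change of 4.45 ± 0.39 (SE, limma, adjusted p = 8.79e-04). B2m, the light chain of MHC class I, was at 1238, 462, 549, 1033 and 933 TPM against 222 to 282 TPM, and Psmb8, a subunit of the immunoproteasome, at 26.8, 9.65, 15.7, 21.5 and 25.0 against 4.29 to 6.66 TPM. In these 3 genes the groups were separate, with 8-week replicate 2 the lowest of its group.

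The promoters of 28 of the 34 genes on this list were found in RefSeq (GRCm38.p6), and the 250 bases upstream of each start were searched on both strands for the core of the interferon-stimulated response element, taken as GAAA, any 2 bases and GAAA; hits may overlap each other. It was found in 10 of the 28 (35.7%), against 3.04% of the 9188 tested genes with a promoter and 2.98% of all 32851 promoters. Of the 21 list members that changed and had a promoter, 7 held it. The promoters of Ifit3, an antiviral RNA-binding protein with a pair of separate matches, and of B2m are shown because both genes rose and both hold the motif, which is in capitals. They lie at chr19:34583279-34583528 and chr2:122147437-122147686, both on the plus strand.
Ifit3: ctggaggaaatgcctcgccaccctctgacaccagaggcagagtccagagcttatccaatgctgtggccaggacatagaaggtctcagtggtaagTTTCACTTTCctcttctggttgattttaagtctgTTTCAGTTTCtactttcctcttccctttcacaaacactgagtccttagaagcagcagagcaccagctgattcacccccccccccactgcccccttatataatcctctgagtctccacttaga
B2m: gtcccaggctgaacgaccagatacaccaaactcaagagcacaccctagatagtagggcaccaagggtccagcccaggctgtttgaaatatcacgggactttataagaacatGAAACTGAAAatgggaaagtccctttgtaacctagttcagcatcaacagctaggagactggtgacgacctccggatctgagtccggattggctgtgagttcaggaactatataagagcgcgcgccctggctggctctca
The nearest match begins 122 bases before the start of Ifit3, whose log2 change was 1.14 (limma, adjusted p = 0.0418), and 139 bases before the start of B2m, whose log2 change was 1.61. Ifit1, Rsad2 and Stat2 hold the motif as well and did not pass the test, with log2 changes of 0.40, 0.08 and 0.41.

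MHC class II genes rose with an overlap between the groups. All 6 tested were higher, against 30.7% of all genes, with a median log2 change of 2.24. In 0 of the 6 were the groups separate, against 25.7% of all genes. H2-Aa, an alpha chain, was at 101, 18.4, 57.8, 66.6 and 96.7 TPM at 8 weeks and at 8.08, 10.3, 7.40, 33.2 and 5.51 TPM at 6 weeks. Replicate 4 of week 6 lay above replicate 2 of week 8. The same held for Cd74, the invariant chain, with 87.6 TPM in that 6-week library and 42.6 TPM in that 8-week one.

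Genes of the contractile apparatus were lower. All 20 genes of the sarcomere core fell, against 13.7% of all genes, with a median log2 change of -1.36 against 0.13 for all genes. The count was 20 of 20 also after rescaling, without 8-week replicate 2 and with the length trend removed. In these fits 29.2%, 16.6% and 26.7% of all genes fell. The median transcript length of these genes was 2092 bases, against 1381 for all tested genes. The list median against 6 weeks was -1.93, -0.50, -0.92, -1.95 and -1.32 in 8-week replicates 1 to 5. Markers of other cells rose in the same libraries: the summed TPM of 14 adipocyte markers was 8613 to 30721 at 8 weeks and 4392 to 8225 at 6 weeks, that of 13 macrophage markers 422 to 3189 and 65.8 to 209.6, and that of 12 fibro-adipogenic progenitor markers 3649 to 13974 and 1094 to 1693. The adipocyte sum includes Car3, which did not pass and on average made up most of that sum at 6 weeks. The part of these other cells in the fall of the fibre genes, or in the rise of the ribosomal, complement and acute phase genes, was not tested.

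Ttn (chr2:76703980-76982547), the giant spring protein titin, was at 46.6, 137, 93.1, 36.5 and 61.6 TPM at 8 weeks and at 303, 339, 342, 274 and 245 TPM at 6 weeks. The groups were well apart, and replicate 2 was again the 8-week library nearest to 6 weeks. Its log2 change was -2.14 ± 0.30 (SE, limma, adjusted p = 0.00105). Xirp2, an actin-binding protein of the Z-disc and intercalated disc, was at 139, 169, 168, 111 and 99.6 TPM against 338 to 648 TPM, a log2 change of -1.69 ± 0.20 (SE, limma, adjusted p = 8.79e-04). Myom1, myomesin of the M-band, had a log2 change of -1.46.

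Promoters of 14 of the 20 sarcomere genes were found, and 2 of them (14.3%), those of Ttn and Xirp2, hold the MEF2 motif (CTA, 4 bases that are each A or T, and TAG, on either strand) in the 250 bases upstream, against 0.653% of the tested genes with a promoter and 0.508% of all promoters. MEF2 factors bind this motif in many muscle genes. Both promoters are shown because these genes were among the 10 largest falls; the motif is in capitals. Ttn lies on the minus strand (chr2:76982548-76982797) and Xirp2 on the plus strand (chr2:67445752-67446001).
Ttn: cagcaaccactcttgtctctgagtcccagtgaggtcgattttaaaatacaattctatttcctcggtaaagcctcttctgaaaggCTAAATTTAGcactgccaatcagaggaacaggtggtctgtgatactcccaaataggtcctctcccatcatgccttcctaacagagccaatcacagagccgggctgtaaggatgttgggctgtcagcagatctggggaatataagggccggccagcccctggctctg
Xirp2: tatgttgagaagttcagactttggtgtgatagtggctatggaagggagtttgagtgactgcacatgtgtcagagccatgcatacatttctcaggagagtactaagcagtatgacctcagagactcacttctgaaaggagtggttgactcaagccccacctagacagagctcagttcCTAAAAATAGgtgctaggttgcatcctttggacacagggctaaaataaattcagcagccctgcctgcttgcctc
The motif begins 166 bases before the start of Ttn and 74 bases before that of Xirp2, and the 14 sarcomere genes with a promoter all fell, whether or not they held it.

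Slow and fast fibre genes that changed were lower, with 1 exception. Of 16 slow fibre genes 8 fell (50%, against 13.7% of all genes) and 0 rose, with a median log2 change of -0.58. Of 16 fast fibre genes 4 fell (25%) and 1 rose (6.25%, against 30.7%), with a median of -1.12. Of the fast genes 6 fell after rescaling and 8 without 8-week replicate 2, where 29.2% and 16.6% of all genes fell. The rise was in Gpd1, glycerol phosphate dehydrogenase, which fat cells also use. Myh7 was at 1061, 2891, 2524, 985 and 1443 TPM at 8 weeks and at 3723, 4646, 6023, 4694 and 4146 TPM at 6 weeks. All 8-week values were below all 6-week values, and its log2 change was -1.50 ± 0.31 (SE, limma, adjusted p = 0.0036). Atp2a2, the slow calcium pump SERCA2, had a log2 change of -1.43.

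The fast myosins varied too much between libraries to be read the same way. Myh2, the myosin of fast oxidative fibres, was at 253, 2117, 814, 446 and 1185 TPM at 8 weeks and at 2343, 2137, 745, 1646 and 1890 TPM at 6 weeks, and it did not pass (limma, adjusted p = 0.0984) but did without 8-week replicate 2 (adjusted p = 0.0162). Myh1 ranged from 9.29 to 465 TPM at 8 weeks and from 50.7 to 489 TPM at 6 weeks and did not pass (limma, adjusted p = 0.238). Myh4 fell with a log2 change of -3.10 ± 1.10 (SE, limma, adjusted p = 0.0392). That call was lost when any 1 of 6 libraries was left out and with no filter on low values, with adjusted p up to 0.0847 and of 0.073.

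Most genes of calcium handling and of the neuromuscular junction were lower. Of 16 genes of calcium release and the triad 11 fell (68.8%, against 13.7% of all genes) and 2 rose (12.5% against 30.7%). Ryr1, the calcium release channel, was at 73.7, 195, 139, 69.5 and 113 TPM at 8 weeks and at 358, 386, 410, 311 and 274 TPM at 6 weeks, a log2 change of -1.64 ± 0.26 (SE, limma, adjusted p = 0.00138). Trdn, triadin, and Jph2, junctophilin, which hold the channel in place, had log2 changes of -1.32 and -1.38. Of 15 junction and denervation genes tested 10 fell (66.7%, against 13.7% of all genes) and 0 rose. Chrne, the adult subunit of the acetylcholine receptor, was at 1.01, 2.47, 5.55, 3.03 and 1.80 TPM against 9.88, 11.2, 12.6, 12.3 and 12.02 TPM. Here replicate 3, not replicate 2, was the 8-week library nearest to 6 weeks, and the log2 change was -1.85 ± 0.26 (SE, limma, adjusted p = 9.99e-04). Ache, which breaks acetylcholine down, had a log2 change of -1.56, and Chrna1 and Chrnd, further receptor subunits that denervation raises, had -0.86 and -1.20. Of 11 satellite cell and regeneration genes tested 4 fell (36.4%, against 13.7% of all genes) and 1 rose (9.09% against 30.7%). After rescaling 7 fell, where 29.2% of all genes did.

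The remaining large falls were of mixed roles. Zfp106, an RNA-binding zinc finger protein needed to keep motor innervation, was at 110, 278, 181, 117 and 170 TPM against 421 to 608 TPM. Kcna7, a potassium channel, was at 23.7 to 61.9 against 72.8 to 124 TPM. Among genes whose groups were separate and whose higher mean was at least 5 TPM, the largest log2 change downward was that of the kinase Sbk3, -2.25 ± 0.48 (SE, limma, adjusted p = 0.00442), with 1.84 to 14.5 TPM at 8 weeks and 18.5 to 72.0 TPM at 6 weeks. Olfr78, an olfactory receptor also found in vessels, was at 0.244 to 1.29 against 3.98 to 10.1 TPM, and Igfn1 at 0.0349 to 3.42 against 3.96 to 6.69 TPM.

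Most genes of fuel metabolism were lower. Of 24 TCA cycle and PGC-1 programme genes 21 fell (87.5%), of 24 fatty acid genes 18 (75%) and of 20 glucose and glycogen genes 16 (80%). Over all genes 13.7% fell. These lists held 0 rises each, against 30.7% of all genes, and their median log2 changes were -0.63, -0.52 and -0.73. After rescaling 23, 18 and 19 fell (29.2% of all genes), and without 8-week replicate 2, 23, 19 and 18 (16.6% of all genes). Perm1, a muscle partner of PGC-1, was at 88.9, 169, 122, 64.9 and 99.5 TPM at 8 weeks and at 198 to 346 TPM at 6 weeks. Hadha, a subunit of the trifunctional enzyme of beta oxidation, was at 104, 265, 128, 97.6 and 155 TPM against 280 to 332 TPM. Hk2, the hexokinase that traps glucose, and Gys1, glycogen synthase, had log2 changes of -1.04 and -1.01. In these 4 genes the groups were separate and replicate 2 was the highest 8-week library.

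The respiratory chain did not move as one. Of 62 nuclear-encoded subunits 23 rose (37.1%, against 30.7% of all genes) and 13 fell (21% against 13.7%) on the TPM scale. Their median was 0.07, against 0.13 for all genes. After rescaling 10 rose and 16 fell, with a median of -0.16, where 25.7% of all genes rose and 29.2% fell. With the length trend removed 7 rose and 16 fell, where the shares of all genes were 27.1% and 26.7%. The subunits that rose had a median transcript length of 526 bases and those that fell 768. Cox7b and Ndufb4, small subunits of complexes IV and I, had log2 changes of 1.23 and 1.22. Among the 13 protein genes of the mitochondrial genome 3 fell (23.1%, against 13.7% of all genes) and 0 rose. After rescaling 5 fell, where 29.2% of all genes did, and 10 fell without 8-week replicate 2, where 16.6% of all genes did. With the replicate number as a block 1 fell. mt-Co1, the core of complex IV, was at 57003, 85539, 59372, 61220 and 63108 TPM at 8 weeks and at 75575 to 90442 TPM at 6 weeks. Replicate 2 lay inside the 6-week range, and the change passed without it (log2 change -0.49, limma, adjusted p = 0.0041) but not with it (-0.39, adjusted p = 0.185). Reads of mt-Nd4l and mt-Nd4, which overlap, cannot be told apart from the tables.

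Ribosomal protein genes rose almost without exception. Of 76 cytosolic ribosomal protein genes 75 rose (98.7%, against 30.7% of all genes) and 0 fell, with a median log2 change of 1.39. After rescaling 74 rose, without 8-week replicate 2 76, and with the length trend removed 73. In these fits 25.7%, 36.6% and 27.1% of all genes rose. Their median transcript length was 630 bases, and many have processed pseudogenes that could share reads. Rpl32 (chr6:115805505-115808747), a protein of the large subunit, was at 2105, 663, 1855, 2159 and 1945 TPM at 8 weeks and at 302, 301, 344, 340 and 334 TPM at 6 weeks. Replicates 1, 3, 4 and 5 of week 8 were close to each other and replicate 2 lay between them and week 6. The log2 change was 2.31 ± 0.29 (SE, limma, adjusted p = 8.79e-04). The list summed to 91989, 38511, 84564, 89863 and 87261 TPM in 8-week replicates 1 to 5, against 24653 to 28380 TPM at 6 weeks. Of 74 mitochondrial ribosomal protein genes 23 rose (31.1%, against 30.7% of all genes) and 3 fell (4.05% against 13.7%). After rescaling 15 rose and 19 fell, where 25.7% of all genes rose and 29.2% fell. Without 8-week replicate 2, 26 rose and 7 fell, where the shares of all genes were 36.6% and 16.6%. With the replicate number as a block 20 rose and 1 fell.

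Translation factors changed in both directions, at shares near those of all genes. Of 31 tested 12 rose (38.7%, against 30.7% of all genes) and 6 fell (19.4% against 13.7%), with a median of 0.07. After rescaling 7 rose and 9 fell, with a median of -0.15, where 25.7% of all genes rose and 29.2% fell. With the replicate number as a block 10 rose and 3 fell. Eef1a1, the widely expressed elongation factor, was at 4019, 1101, 2039, 3523 and 3093 TPM at 8 weeks against 405 to 535 TPM at 6 weeks, a log2 change of 2.33. Eef1a2, its muscle and nerve counterpart, was at 542, 1064, 1157, 585 and 804 TPM against 1232 to 1701 TPM, a log2 change of -0.83. Another 2 pairs are given as examples only. The 10 pairs compared, all those named here included, were chosen after their values were seen. Their tally therefore does not measure how common the pattern is. The widely expressed form was higher in 10, where 30.7% of all genes were. The muscle form was lower in 6 and higher in 2, Cox7a1 and Cox8b, with log2 changes of 0.52 and 0.70. Rpl3, a ribosomal protein of most tissues, and Rpl3l, its counterpart in striated muscle, had log2 changes of 2.12 and -0.86, and Actb, the cytoskeletal actin, and Acta1, the skeletal actin, had 1.18 and -0.90.

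Lysosome genes mostly rose, and the proteasome and atrophy lists held calls in both directions, as all genes did. Of 24 lysosome genes 18 rose (75%, against 30.7% of all genes) and 1 fell (4.17% against 13.7%). Ctss, a cathepsin of macrophages, was at 20.1 to 122 TPM against 2.94 to 11.3 TPM, and Npc2, a cholesterol carrier, had a log2 change of 1.86. Of 31 proteasome genes 5 rose (16.1%, against 30.7% of all genes) and 7 fell (22.6% against 13.7%). After rescaling 1 rose and 13 fell, where 25.7% of all genes rose and 29.2% fell. Without 8-week replicate 2, 8 rose and 10 fell, where the shares of all genes were 36.6% and 16.6%. With the replicate number as a block 3 rose and 1 fell, where 2989 of 12183 genes rose and 1344 fell. The atrophy and FoxO list held 5 rises in 20 (25%, against 30.7% of all genes) and 4 falls (20% against 13.7%), with a median of -0.01. After rescaling it held 3 rises and 5 falls, with a median of -0.24, where 25.7% of all genes rose and 29.2% fell. With mitochondrially encoded genes left out it held 2 rises and 6 falls, where 3332 of 12890 genes rose and 3049 fell. Fbxo32, or atrogin-1, the ubiquitin ligase used as a sign of atrophy, was at 56.9, 110, 86.3, 40.3 and 60.6 TPM at 8 weeks and at 199, 195, 178, 87.8 and 150 TPM at 6 weeks. The groups overlapped at 8-week replicate 2 and 6-week replicate 4, and the log2 change was -1.21 ± 0.29 (SE, limma, adjusted p = 0.00726). Trim63, or MuRF1, its usual companion, was at 47.0 to 146 against 86.1 to 168 TPM and did not pass, with a log2 change of -0.45 (limma, adjusted p = 0.227). It passed with sample quality weights (-1.02, limma, adjusted p = 0.00176), and its log2 change was -0.22 without 8-week replicate 4. Foxo4 fell with a log2 change of -1.07, and Eif4ebp1, a brake on translation, rose with 0.82.

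Acute phase genes rose while Stat3 did not pass. Of 18 acute phase and STAT3 genes tested 13 rose (72.2%, against 30.7% of all genes) and 0 fell (against 13.7%), with a median log2 change of 1.07. Hp, haptoglobin, was at 232, 47.6, 161, 334 and 83.9 TPM at 8 weeks and at 4.18 to 16.0 TPM at 6 weeks, a log2 change of 4.03 ± 0.49 (SE, limma, adjusted p = 8.79e-04). Fat cells and the liver are known sources of haptoglobin and of Orm1, orosomucoid, which had a log2 change of 3.86. Serpina3n, a protease inhibitor raised by inflammation and glucocorticoids, was at 63.6, 14.0, 31.0, 84.4 and 29.3 TPM against 4.32 to 7.57 TPM. Stat3 was at 18.8 to 22.9 TPM at 8 weeks and 14.9 to 27.4 TPM at 6 weeks, with a log2 change of 0.01 on the TPM scale and -0.21 after rescaling (limma, adjusted p = 0.965 and 0.124). Mt1 and Mt2, the metallothioneins, rose with log2 changes of 1.61 and 1.94.

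Regulatory and stress lists were examined in the same way. Of 14 glucocorticoid targets tested 5 rose (35.7%, against 30.7% of all genes) and 1 fell, Zbtb16 (7.14% against 13.7%). Without 8-week replicate 2, 8 rose, where 36.6% of all genes did. Cebpd, a factor of the acute response, was at 67.8, 74.9, 58.2 and 38.6 TPM in 8-week replicates 1, 3, 4 and 5, at 7.59 TPM in replicate 2, and at 2.97 to 13.1 TPM at 6 weeks. Of 15 immediate early genes tested 7 rose (46.7%, against 30.7% of all genes) and 0 fell, and 4 rose with the replicate number as a block. Of 18 unfolded protein and ATF4 genes 9 rose (50%, against 30.7% of all genes) and 0 fell (against 13.7%) on the TPM scale. After rescaling 8 rose and 1 fell, where 25.7% of all genes rose and 29.2% fell. Asns, asparagine synthetase, and Phgdh, the first enzyme of serine synthesis, both ATF4 targets, had log2 changes of 2.46 and 2.60. Of 20 heat shock genes 2 rose (10%), among them Hspe1, and 8 fell (40%, against 13.7% of all genes), among them Hsp90ab1. With the replicate number as a block 4 of them fell. Of 17 clock genes 2 rose (11.8%, against 30.7% of all genes), Clock and Hlf, and 1 fell (5.88% against 13.7%), Tef. After rescaling 4 fell, where 29.2% of all genes did. Of 8 cell cycle genes tested 2 rose (25%, against 30.7% of all genes), Pcna and Mcm6.

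The same interval was examined in mock-injected muscle, on libraries that the NCAC comparison does not use. In Con, 8086 of 12502 genes changed between 6 and 8 weeks (64.7%), 6811 higher (54.5%) and 1275 lower (10.2%). After rescaling 3808 were higher and 4362 lower. Of the 3721 genes that rose in NCAC and were tested in Con, 3653 (98.2%) rose in Con, and of the 1669 that fell in NCAC, 1006 (60.3%) fell in Con. These shared calls were 56.2% of the rises and 79.3% of the falls in Con. A call in opposite directions was made for 0 genes. Across the 12100 genes tested in both, the log2 changes had a Pearson r of 0.948 and a Spearman rho of 0.937. This is a correlation across genes, which are not independent replicates.

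The changes of named genes in both treatments were as follows. Adipoq had a log2 change of 4.27 in NCAC and 3.51 in Con, C1qa 3.10 and 3.28, Mcpt4 3.82 and 3.86, and Rpl32 2.31 and 2.15. Ttn changed by -2.14 in NCAC and -1.20 in Con, Myh7 by -1.50 and -0.97, and Chrne by -1.85 in NCAC and by -0.83 in Con, where it did not pass. H2-Ab1, an MHC class II beta chain, had 2.24 in NCAC and 3.53 in Con. The sarcomere core held 18 falls of 20 in Con, with a median of -0.88, and the ribosomal proteins 75 rises of 76. Over all genes in Con 10.2% fell and 54.5% rose.

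The difference between the treatments in the change from 6 to 8 weeks was tested in 13062 genes over 20 libraries. By limma 0 passed (0%), the smallest adjusted p was 0.536, and 1216 genes had an unadjusted p under 0.05; with sample quality weights, which give less weight to libraries far from their group, 1254 passed, 106 with a positive and 1148 with a negative difference, NCAC minus Con. The difference for Ttn was -0.94, for Chrne -1.02 and for H2-Ab1 -1.28, with adjusted p of 0.54, 0.54 and 0.56. The median difference of all genes was -0.16, and -0.01 after rescaling. A p that misses the threshold does not show that the treatments changed alike.

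**Figure D3:**
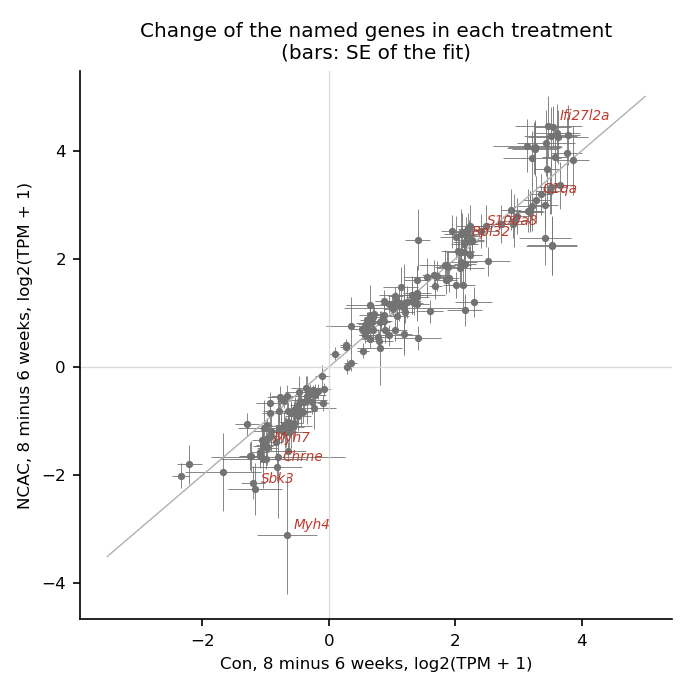
Log2(TPM + 1) change from 6 to 8 weeks in Con (x axis) and in NCAC (y axis) for the named genes tested in both, with bars of 1 SE of the fit and a line of equal change. The points run along the line from Sbk3 at -1.17 in Con and -2.25 in NCAC to Ifi27l2a at 3.54 and 4.45, and Myh4 lies far below it at -0.66 and -3.10.

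The step before, from 4 to 6 weeks in NCAC, gave 0 of 11870 genes by limma (0%), with 276 at an unadjusted p under 0.05. It shares the 6-week libraries with the comparison of 8 and 6 weeks.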

How the data were processed

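RNA of soleus muscle was sequenced as TruSeq stranded mRNA libraries on a NovaSeq, per the labels' protocols. The authors deposited 1 table of TPM values for 47643 genes, as its file name and values show; the genome build, per the submitters' processing notes, is mm10. TPM keeps no depth, so no counting interval is attached. How reads were aligned and quantified was not given in the sources used here.

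Genes with at least 1 TPM in at least 5 of the libraries fitted were tested with limma 3.58.1 (R 4.3.3) on log2(TPM + 1), with 1 mean per group, an intensity trend and Benjamini-Hochberg adjustment over all genes tested; the threshold was an adjusted p of 0.05. This scale understates the change of low genes. Values per library were compared with exact two-sided permutation tests. The procedure was tested on simulated data, and the outcome is not reported here. Alternatives were another pseudocount, no filter, median-of-ratios rescaling, a replicate block, sample quality weights, all 62 libraries in 1 fit, removal of the trend with transcript length, mitochondrial genes left out, and leaving out each library in turn.

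Named genes were the 10 largest rises and 10 largest falls that passed, with no overlap between the groups of libraries and a mean of 5 TPM or more in the higher group, up to 4 members of each list with the smallest adjusted p, the 5 largest differences between treatments in each direction (0 passed), and a panel of 18 genes. Of the falls, 2 predicted genes or pseudogenes were passed over. Genes named beside them were chosen after their values were seen. A few genes chosen by this rule are left unreported. The members, 45 gene lists (892 of 896 genes found) and the tests were chosen with earlier results of these data known. Positions and median transcript lengths are from GENCODE M21 (96.8% of tested genes had a length), and promoters from RefSeq. Figures used matplotlib 3.10.9 (Python 3.11.15). Samples were treated as unpaired.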

Additional observations from a re-analysis of the deposited data

Results flagged for a closer look

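In 11 of the 106 groups of 5 values examined, 1 library lay far from the other 4 of its group (gap over 0.71 of the range); chance alone would give about 1 in 20. At 6 weeks the high values were 71.966 TPM of Adipoq in replicate 2 (next 29.352), 72.035 TPM of Sbk3 in replicate 4 (next 23.373), 10.086 TPM of Olfr78 in replicate 5 (next 5.7363) and 687.34 TPM of Myh4 in replicate 3 (next 26.087). The low values were 72.826 TPM of Kcna7 in replicate 4 (next 110.21) and, in replicate 1, a sum of 1551.3 TPM of smooth muscle and pericyte markers (next 2140.4). That same replicate held 142.09 TPM of keratinocyte markers, against 5.7429 TPM in the next. At 8 weeks mt-Co1 was at 85539 TPM in replicate 2 (next 63108). Neutrophil markers summed to 90.196 TPM in replicate 1 (next 44.876). Replicate 3 held the highest sums of T and NK cell markers, 6.0313 TPM (next 3.6175), and of B cell markers, 212.58 TPM (next 58.944).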

How the results depend on the processing

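The number of genes changed in NCAC ran from 3787 to 6388 when 1 library was left out, and was 8211 with sample quality weights. Genes lower at 8 weeks numbered 1063 without 8-week replicate 4 and 1997 without 8-week replicate 2, the lowest and highest of these fits, and 3557 after rescaling, 2926 with quality weights, 3148 with the length trend removed and 3049 with mitochondrial genes left out. In Con rescaling gave 3808 higher and 4362 lower. The difference between treatments gave 0 genes in all fits but that with quality weights (1254). Stat3, near 0, changed sign: its log2 change was -0.21 after rescaling, -0.0078 with quality weights, -0.17 without the length trend, -0.16 without mitochondrial genes and -0.10 to 0.10 with 1 library left out. Col1a1 was at -0.12 without the length trend. The mitochondrial share differed by -9.82 to -6.16 percentage points with 1 library left out. The cause of these shifts was not tested.

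Replicate numbers did not pair the samples: same-numbered libraries deviated together with correlations of -0.189 to 0.0955, and 0 of the 5 numbers correlated best with itself. With the replicate number as a block 4333 genes changed, 2989 higher and 1344 lower, and 0 differed between treatments. Myh4 missed the threshold under the block (limma, adjusted p = 0.0863). Of the single-gene results, 623 kept their direction and side of the threshold, 8 changed sign, 8 gained and 8 lost the call. Read depth is unknown, so low values such as those of Olfr78 and Igfn1 have no counting error attached.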
